A study of Arabidopsis thaliana with 12 samples.

Results

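The genes described here make the plant hormone jasmonate in leaves or are switched on by it. They are 10 of the 37336 genes in the count table and were taken by gene ID, 7 for their enzymatic step and 3 as output genes. The choice was made with earlier results of these data known. The synthesis genes are *LOX2* (AT3G45140), *AOS* (AT5G42650), *AOC1* (AT3G25760), *AOC2* (AT3G25770), *AOC3* (AT3G25780), *AOC4* (AT1G13280) and *OPR3* (AT2G06050). The output genes are *VSP1* (AT5G24780), *VSP2* (AT5G24770) and *TAT3* (AT2G24850). All 10 had reads in every library and reached a normalized count of 10 in at least 3 libraries, so no filter removed any of them.

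RNA-seq was run on mature leaves of 4-week-old *Arabidopsis* plants in 4 groups of 3 libraries, each a pool of at least 3 plants. The groups are *rtnlb16-1* under long days (LD, 16 h light and 8 h dark; libraries 50, 51 and 52), Col-0 under LD (libraries 47, 48 and 49), *rtnlb16-1* under continuous low light (CLL, libraries 68, 69 and 70) and Col-0 under CLL (libraries 65, 66 and 67). Col-0 is the wild type. *rtnlb16-1* is a single T-DNA allele of the reticulon gene *RTNLB16* (AT3G10915). As a model the line is limited in that bases at the 5′ end of 1 predicted transcript are missing and the T-DNA brings in a CaMV35S enhancer, and counts per gene do not separate the transcripts. LD and CLL differ in light intensity (about 80 against about 50 µmol per second and square metre in the labels, with a lower CLL value in the study's methods) as well as in photoperiod, and the labels write the LD hours both ways round, read here as 16 h of light from the sample treatment label and the methods. In addition, all LD libraries carry lower numbers than all CLL libraries. Within each regime all Col-0 libraries also carry lower numbers than all *rtnlb16-1* libraries. The labels do not say what the numbers stand for. If they follow an order of handling, neither an effect of light nor one of genotype can be told apart from it. The libraries hold 25954730 to 44747661 assigned reads. *RTNLB16* had 7577 to 12665 normalized counts in *rtnlb16-1* under LD, against 769 to 1016 in Col-0, and 1543 to 2252 in *rtnlb16-1* under CLL, against 640 to 954 in Col-0. The actin gene *ACT2* and the superoxide dismutase gene *MSD1* were not called between genotypes, with log2 fold changes of -0.09 and 0.37 under LD and -0.27 and -0.07 under CLL. Libraries 68 and 69 differed from each other far less than the other 11 within-group pairs did (chi-square per degree of freedom 1.76, against 24.8 to 145.9), yet beyond sampling noise, so they were kept as 2 samples and merged in an alternative. Over 19477 genes that check picks up very small differences, so it cannot tell whether the 2 are independent samples. Merging them changed the genotype calls over all genes under CLL from 254 higher and 216 lower to 171 and 82. Without 1 other CLL library they were 153 and 106 (65), 167 and 84 (66), 168 and 142 (67) or 166 and 89 (70). A drop of this kind was thus not particular to the pair. With the pair merged, the interaction calls went from 120 positive and 162 negative to 21 and 46. Without 1 other CLL library they were 42 and 68 (65), 237 and 147 (66), 66 and 95 (67) or 76 and 108 (70).

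Jasmonate is made from linolenic acid of chloroplast membranes. Lipoxygenase, allene oxide synthase and allene oxide cyclase turn it into 12-oxophytodienoic acid inside the chloroplast, and this precursor is reduced by OPR3 and shortened by beta-oxidation in the peroxisome. Joined to isoleucine, the hormone is sensed by the F-box protein COI1, which frees MYC transcription factors from their JAZ repressors. MYC factors then raise wound and defense genes, among them several genes of the synthesis route itself.

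The *AOC* genes and the *VSP* genes are families of related copies, and how alike the copies are matters for reading their counts one by one. *AOC1*, *AOC2* and *AOC3* stand in a row on the plus strand of chromosome 3 (AOC1 chr3:9403779-9405338, AOC2 chr3:9406669-9408071, AOC3 chr3:9409160-9411090, TAIR10.1), with 1330 and 1088 bases between neighbours, and *AOC4* lies alone on chromosome 1. The coding sequences of *AOC1* and *AOC2* were 90.3% identical, those of *AOC4* and the other 3 between 71.1% and 78.8%. The same 90-base coding stretch of the 4 genes is shown because it has about the divergence of the whole coding sequence, with bases that differ from *AOC1* in capitals (TAIR10.1 sequence from RefSeq, plus strand; AOC1 chr3:9404956-9405045, AOC2 chr3:9407690-9407779, AOC3 chr3:9410260-9410349, AOC4 chr1:4548403-4548492).
AOC1: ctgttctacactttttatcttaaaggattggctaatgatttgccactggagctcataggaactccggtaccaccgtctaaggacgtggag
AOC2: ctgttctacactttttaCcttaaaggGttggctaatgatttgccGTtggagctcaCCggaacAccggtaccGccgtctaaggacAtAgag
AOC3: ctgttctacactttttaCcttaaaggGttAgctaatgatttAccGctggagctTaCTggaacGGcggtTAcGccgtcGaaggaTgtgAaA
AOC4: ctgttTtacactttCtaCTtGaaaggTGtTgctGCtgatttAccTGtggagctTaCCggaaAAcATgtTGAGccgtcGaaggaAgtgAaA
In this stretch *AOC2* differs from *AOC1* at 10 bases, *AOC3* at 17 and *AOC4* at 28. Of the 50-base stretches in the exons, 2.20% of those of *AOC1*, 0.0832% of those of *AOC2*, 1.60% of those of *AOC3* and none of those of *AOC4* occur more than once in the genome. *VSP1* and *VSP2* lie on the minus strand of chromosome 5 (VSP1 chr5:8507590-8509201, VSP2 chr5:8500468-8502224) with 5365 bases between them, and their coding sequences were 89.5% identical. Their matching 90-base stretch (minus strand, VSP1 chr5:8508512-8508601, VSP2 chr5:8501482-8501571) is given with the 9 bases that differ from *VSP1* in capitals.
VSP1: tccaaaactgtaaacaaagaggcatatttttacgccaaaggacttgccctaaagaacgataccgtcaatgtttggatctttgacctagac
VSP2: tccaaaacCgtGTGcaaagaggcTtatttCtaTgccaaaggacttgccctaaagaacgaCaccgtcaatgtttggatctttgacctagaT
Repeated 50-base stretches made up 0.420% of the *VSP1* exons and 0.353% of the *VSP2* exons, and there were none in *LOX2*, *AOS*, *OPR3* and *TAT3*. No member overlaps another annotated gene.

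MYC factors are known to bind the G-box CACGTG and its variants CACATG and AACGTG. These 3 motifs, which cannot match the same 6 bases, were searched on both strands in the 250 bases before the annotated start of each gene. CACGTG occurred in 6.49% of the 27443 such windows of nuclear protein-coding genes, CACATG in 11.1%, AACGTG in 7.54% and any of the 3 in 22.8%. Of the 10 genes 6 held 1 match each. *AOS* held CACGTG directly before its start (bases -6 to -1). *LOX2* (from -97), *AOC4* (from -78) and *TAT3* (from -111) held CACATG, and *AOC1* (from -138) and *VSP1* (from -170) held AACGTG. The windows of *AOC2*, *AOC3*, *OPR3* and *VSP2* held none of these letters. The windows printed are those with a match among the 7 genes whose level differed between the genotypes under LD, in the direction of transcription with the match in capitals (RefSeq TAIR10.1; LOX2 plus strand chr3:16524995-16525244, AOS minus strand chr5:17099596-17099845, AOC1 plus strand chr3:9403529-9403778, TAT3 minus strand chr2:10585217-10585466, VSP1 minus strand chr5:8509202-8509451).
LOX2: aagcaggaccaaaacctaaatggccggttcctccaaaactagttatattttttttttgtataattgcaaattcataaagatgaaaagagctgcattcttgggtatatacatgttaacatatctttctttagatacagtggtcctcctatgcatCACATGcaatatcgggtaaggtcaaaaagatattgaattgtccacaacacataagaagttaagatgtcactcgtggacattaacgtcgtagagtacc
AOS: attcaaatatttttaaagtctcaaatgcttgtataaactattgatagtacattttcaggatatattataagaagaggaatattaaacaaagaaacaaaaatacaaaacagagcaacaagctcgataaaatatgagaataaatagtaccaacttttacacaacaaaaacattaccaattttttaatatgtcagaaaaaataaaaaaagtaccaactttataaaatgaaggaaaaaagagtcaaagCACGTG
AOC1: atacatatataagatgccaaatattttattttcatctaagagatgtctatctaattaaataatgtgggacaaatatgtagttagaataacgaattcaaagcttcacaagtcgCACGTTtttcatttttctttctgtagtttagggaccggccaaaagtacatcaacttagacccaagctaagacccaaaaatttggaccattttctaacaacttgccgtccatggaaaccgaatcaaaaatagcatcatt
TAT3: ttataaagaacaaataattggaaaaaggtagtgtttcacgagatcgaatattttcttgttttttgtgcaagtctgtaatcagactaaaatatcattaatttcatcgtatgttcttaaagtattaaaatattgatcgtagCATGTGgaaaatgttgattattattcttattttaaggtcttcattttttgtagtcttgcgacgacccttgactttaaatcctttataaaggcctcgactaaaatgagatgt
VSP1: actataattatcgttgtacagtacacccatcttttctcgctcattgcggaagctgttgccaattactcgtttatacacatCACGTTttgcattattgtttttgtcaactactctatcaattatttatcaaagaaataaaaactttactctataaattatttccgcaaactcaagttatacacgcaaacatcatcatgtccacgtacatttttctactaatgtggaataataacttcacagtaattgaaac
In *AOC1*, *VSP1* and *TAT3* the capitals are the reverse complement of the motif, which lies on the other strand. The window of *AOC4*, not printed, runs into 1 other annotated gene. The printed windows belong to 4 genes that were lower and 1 gene that was higher in *rtnlb16-1*, and a match describes letters in these windows, not binding.

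In Col-0 the early synthesis genes were the most abundant of the set. Per kilobase of exon, *AOS* had 8469 ± 1316 normalized counts and *LOX2* 4069 ± 295 in Col-0 under LD (SD, n = 3), and *AOC2* came next with 2903 ± 1276. *AOC3*, at 14.6 ± 3.09 per kilobase, was the lowest. In *rtnlb16-1* under LD the order differed, with *AOS* at 1174 ± 434, *VSP2* at 1035 ± 354 and *LOX2* at 614 ± 151 normalized counts per kilobase (SD, n = 3). *TAT3* was the lowest there, at 0.646 ± 0.378. Under CLL *LOX2* led in both genotypes, with 2617 ± 508 per kilobase in *rtnlb16-1* and 5697 ± 2518 in Col-0 (SD, n = 3).

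**Figure D1:**
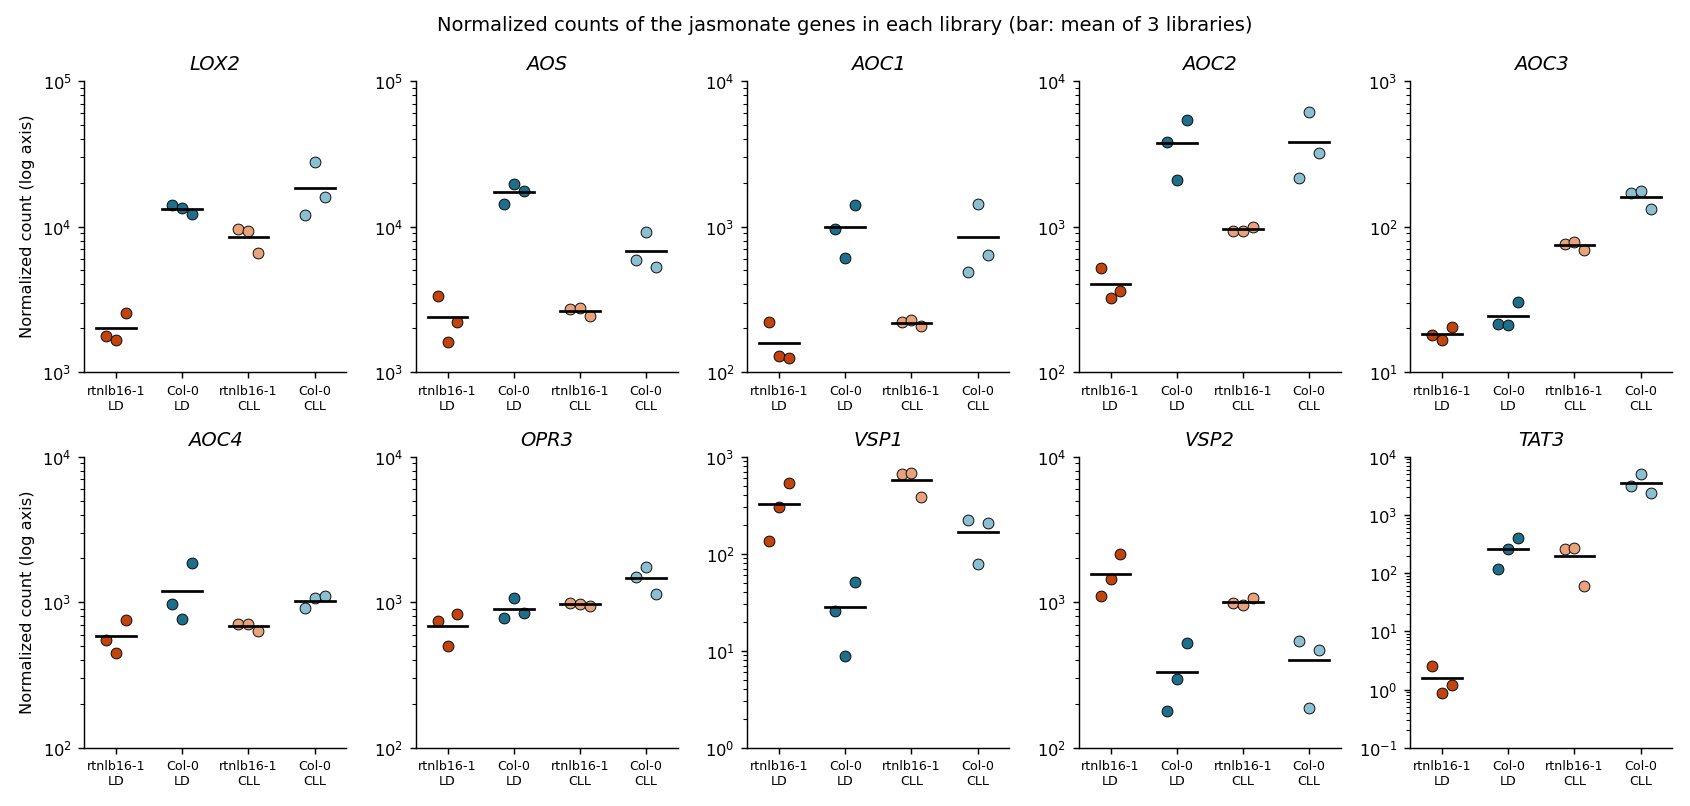
Normalized counts (log axis) of the 10 genes in the 12 libraries, by group; points are libraries and bars are means of 3 libraries. *LOX2* lies between 1664 and 2560 in *rtnlb16-1* under LD, below all other libraries, *VSP2* is higher in every *rtnlb16-1* library than in every Col-0 library, and *TAT3* spans 0.879 to 5076.

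Under LD the leaf of *rtnlb16-1* had lower levels of 4 synthesis genes and of *TAT3*, and higher levels of both *VSP* genes. A gene was called when limma gave an adjusted p under 0.01 together with an absolute log2 fold change above 1. By that rule 5 of the 10 were lower, against 5.41% of the 30388 genes tested, and 2 were higher, against 6.0%. *AOC3*, *AOC4* and *OPR3* were not called. The median log2 fold change of the 10 was -1.79, against 0 for all genes tested. Because the 10 were chosen with earlier results known, comparisons of the set with all genes are descriptions and no test. The groups did not overlap for 9 of the 10 genes, against 27.2% of all genes, and 3 libraries against 3 cannot give an exact permutation p under 0.1 for a single gene.

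*LOX2*, the chloroplast 13-lipoxygenase known for its part in the wound response of leaves, had 1769, 1664 and 2560 normalized counts in *rtnlb16-1*, against 14087, 13420 and 12193 in Col-0. The lowest Col-0 library was thus well above the highest *rtnlb16-1* library, and the mean was 6.62-fold lower in *rtnlb16-1* (log2 fold change -2.75, standard error 0.28, adjusted p = 1.20e-05 from limma). *AOS*, the cytochrome P450 that forms allene oxide and the only gene of its kind in this plant, had 3339, 1601 and 2216 in *rtnlb16-1*, against 14334, 19622 and 17668 in Col-0. Its mean was 7.21-fold lower (log2 fold change -2.90, standard error 0.27, adjusted p = 4.61e-06 from limma). Both genes kept their call in all 25 alternatives.

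The cyclases, which fix the stereochemistry of the precursor, differed among themselves. *AOC2* had 516, 324 and 361 normalized counts in *rtnlb16-1*, against 3796, 2104 and 5421 in Col-0, a 9.42-fold lower mean (log2 fold change -3.16, standard error 0.36, adjusted p = 2.88e-05 from limma). *AOC1* had 219, 128 and 125 in *rtnlb16-1*, against 961, 610 and 1414 in Col-0 (log2 fold change -2.62, standard error 0.38, adjusted p = 0.000189 from limma). For both genes the 3 Col-0 libraries were spread over more than the 3 *rtnlb16-1* libraries, with library 48 lowest and library 49 highest. *AOC4* had 551, 446 and 750 in *rtnlb16-1*, against 968, 770 and 1860 in Col-0, and missed the call (log2 fold change -0.97, standard error 0.28, adjusted p = 0.0209 from limma). It passed in 3 alternatives, with edgeR, with DESeq2 and without library 48. *AOC3* was low in both, at 18.1, 16.7 and 20.2 in *rtnlb16-1*, against 21.5, 21.1 and 30.2 in Col-0 (log2 fold change -0.37, 95% confidence interval -1.04 to 0.30). *OPR3*, the peroxisomal reductase at the end of the route's specific steps, had 746, 498 and 829 in *rtnlb16-1*, against 775, 1064 and 846 in Col-0. These overlap, and the interval of its log2 fold change ran from -0.86 to 0.07.

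The output genes went in opposite directions. *TAT3*, a tyrosine aminotransferase gene used as a reporter of the jasmonate response, had 2.58, 0.879 and 1.19 normalized counts in *rtnlb16-1*, which are 2, 1 and 1 reads, against 119, 259 and 399 in Col-0. From 4 against 521 reads the level was 179.5-fold lower in *rtnlb16-1*, with an exact binomial 95% interval of 69.7 to 661 that covers counting error only (log2 fold change -6.56 with a pseudocount of 1, adjusted p = 2.30e-06 from limma). *VSP1*, a vegetative storage protein with acid phosphatase activity, had 137, 303 and 530 in *rtnlb16-1*, against 25.7, 8.80 and 50.7 in Col-0, an 11.4-fold higher mean (log2 fold change 3.56, standard error 0.59, adjusted p = 0.000624 from limma). The Col-0 values of *VSP1* rest on 60 reads over the group. *VSP2*, its near copy and a protein known to slow insect larvae, had 1104, 1447 and 2156 in *rtnlb16-1*, against 179, 297 and 523 in Col-0, a 4.72-fold higher mean (log2 fold change 2.31, standard error 0.40, adjusted p = 0.000881 from limma). All 3 genes kept their call in the 25 alternatives.

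**Figure D2:**
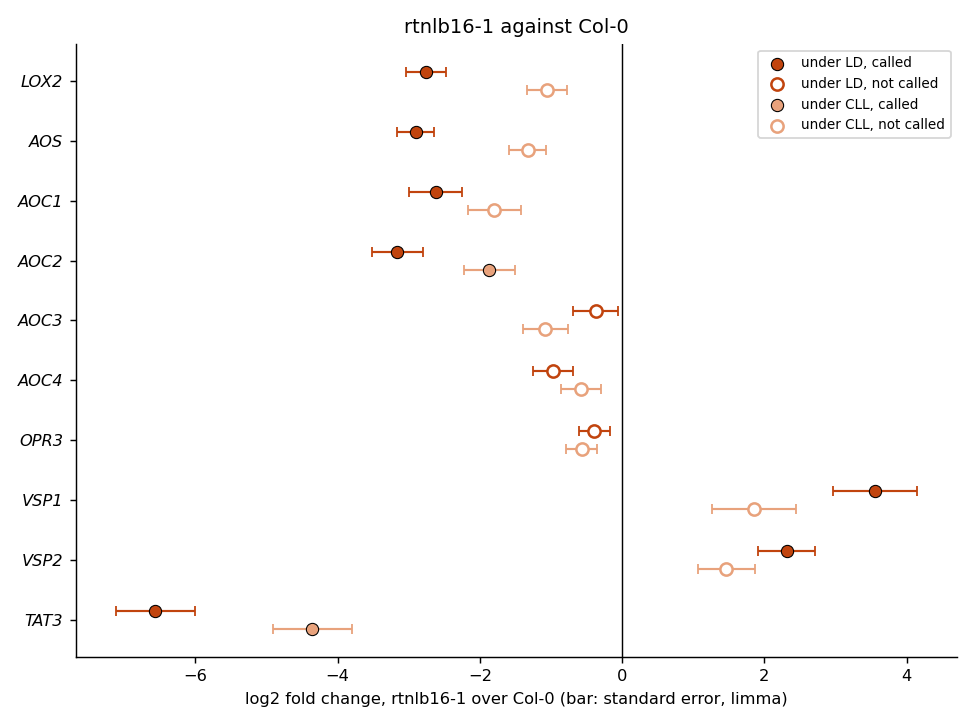
Log2 fold change of *rtnlb16-1* over Col-0 for each gene, with its standard error from limma, under LD and under CLL; filled points were called. The 7 filled LD points include *TAT3* at -6.56 and *VSP1* at 3.56, and the 2 filled CLL points are *AOC2* and *TAT3*.

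Under CLL the same comparison gave the same direction for every gene, with 2 lower calls, against 0.711% of all genes, and no higher call, against 0.836%. The groups did not overlap for any of the 10 genes, against 32.1% of all genes. The median log2 fold change was -1.07, against 0.03 for all genes. *TAT3* had 263, 268 and 60.7 normalized counts in *rtnlb16-1*, against 3086, 5076 and 2389 in Col-0, a 17.8-fold lower mean (log2 fold change -4.35, standard error 0.55, adjusted p = 0.000383 from limma). Library 70 lay far below libraries 68 and 69, the pair that differed little from each other over all genes. *AOC2* had 938, 934 and 993 in *rtnlb16-1*, against 2154, 6158 and 3186 in Col-0 (log2 fold change -1.87, standard error 0.36, adjusted p = 0.00894 from limma). The *AOC2* call was lost in 10 alternatives, with a pseudocount of 5, with upper-quartile scaling, with libraries 68 and 69 merged, and without library 47, 52, 66, 67, 68, 69 or 70.

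The other synthesis genes were lower in every *rtnlb16-1* library under CLL than in every Col-0 library, without a call. *AOS* had 2707, 2741 and 2433 in *rtnlb16-1*, against 5911, 9211 and 5256 in Col-0 (log2 fold change -1.33, standard error 0.27, adjusted p = 0.0113 from limma). *AOC1* had 222, 227 and 207 in *rtnlb16-1*, against 485, 1439 and 634 in Col-0 (log2 fold change -1.80, standard error 0.38, adjusted p = 0.0147 from limma). *LOX2* had 9563, 9358 and 6605 in *rtnlb16-1*, against 11981, 27709 and 15892 in Col-0 (log2 fold change -1.05, standard error 0.28, adjusted p = 0.0534 from limma). In Col-0 the highest value of these 3 genes and of *AOC2* came each time from library 66. *AOC3* had 76.0, 78.2 and 69.5 in *rtnlb16-1*, against 171, 176 and 132 in Col-0 (log2 fold change -1.08, adjusted p = 0.0765 from limma). The difference was smaller for *AOC4*, with 636 to 712 in *rtnlb16-1* and 907 to 1100 in Col-0, and for *OPR3*, with 949 to 993 in *rtnlb16-1* and 1143 to 1756 in Col-0 (log2 fold change -0.58 for *AOC4*, adjusted p = 0.294 from limma, and -0.57 for *OPR3*, adjusted p = 0.185). Neither of these was called in any of the 25 alternatives.

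*VSP1* under CLL had 666, 676 and 388 in *rtnlb16-1*, against 222, 78.5 and 206 in Col-0 (log2 fold change 1.86, standard error 0.59, adjusted p = 0.107 from limma). *VSP2* had 983, 952 and 1075 in *rtnlb16-1*, against 539, 187 and 468 in Col-0 (log2 fold change 1.47, standard error 0.40, adjusted p = 0.0593 from limma). Neither passed the test. Count models on the recovered reads called more of the set. edgeR called *LOX2*, *AOS*, *AOC1*, *AOC2* and *TAT3* lower, against 1.94% of all genes, and both *VSP* genes higher, against 2.03%. DESeq2 called the same 5 and *AOC3* lower, against 1.81% of all genes, and none higher, against 1.58%.

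Leaf tissue sampled from a rosette can hold other organs. Under LD the marker sums of shoot meristem and flower were higher in *rtnlb16-1*, as the *VSP* genes were. The summed normalized count of 5 shoot meristem markers was 370 to 754 in *rtnlb16-1* under LD, against 2.74 to 8.80 in Col-0, where the defining gene *STM* was at 0 in all 3 libraries. Under CLL it was 342 to 366 in *rtnlb16-1*, against 10.04 to 347 in Col-0. The summed count of 6 flower markers was 281 to 651 in *rtnlb16-1* under LD, against 75.6 to 94.6 in Col-0, where *AP1* and *LFY* were at 0, and 211 to 412 in *rtnlb16-1* under CLL, against 25.6 to 60.1 in Col-0. The Col-0 flower sum under LD was mostly *AG*, at 63.3 to 87.8 normalized counts. *AG* was the 1 flower marker with a negative log2 fold change under LD, at 24.5 to 68.6 in *rtnlb16-1*. Between the Col-0 groups the flower sum was higher under LD, where *VSP1* was lower. *VSP* genes are known to be active in flowers as well as in young leaves. Within Col-0 under CLL, library 66 had the lowest *VSP1* and *VSP2* and the lowest sums, 10.04 for meristem and 25.6 for flower. Library 65 had a meristem sum of 347, within the range of *rtnlb16-1* under CLL, and a *VSP1* plus *VSP2* count of 761, against 1463 to 1649 in *rtnlb16-1*. Markers of leaf mesophyll summed to 1093870 to 1856740 in *rtnlb16-1* under LD, against 2386050 to 4292220 in Col-0, and to 746136 to 912292 in *rtnlb16-1* under CLL, against 1230700 to 1481850 in Col-0. The mesophyll sums are mostly *RBCS1A*, *CAB1* and *RCA*. The groups did not overlap for 4 of the 5 mesophyll markers under LD and for 2 under CLL. Under CLL the mean of *FNR2* was higher in *rtnlb16-1*, at 18946 against 17219 in Col-0. Sums of 5 phloem and vasculature markers were 4435 to 5548 in *rtnlb16-1* under LD, against 7314 to 13868 in Col-0, and 4668 to 4977 in *rtnlb16-1* under CLL, against 4173 to 6076 in Col-0. Sums of 5 markers of senescing leaves were 6783 to 7092 in *rtnlb16-1* under LD, against 5267 to 6913 in Col-0, and 10079 to 15140 in *rtnlb16-1* under CLL, against 7150 to 8686 in Col-0. Under LD 3 of the 5 meristem markers and 5 of the 6 flower markers were called higher in *rtnlb16-1*, 2 of the 5 phloem markers were called lower, and no mesophyll or senescence marker was called. Under CLL 3 flower markers were called higher and no marker of the other lists was called. The part of tissue makeup in the *VSP* and synthesis results was not tested, and in bulk leaves fewer cells of a type and less RNA per cell cannot be told apart.

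**Figure D3:**
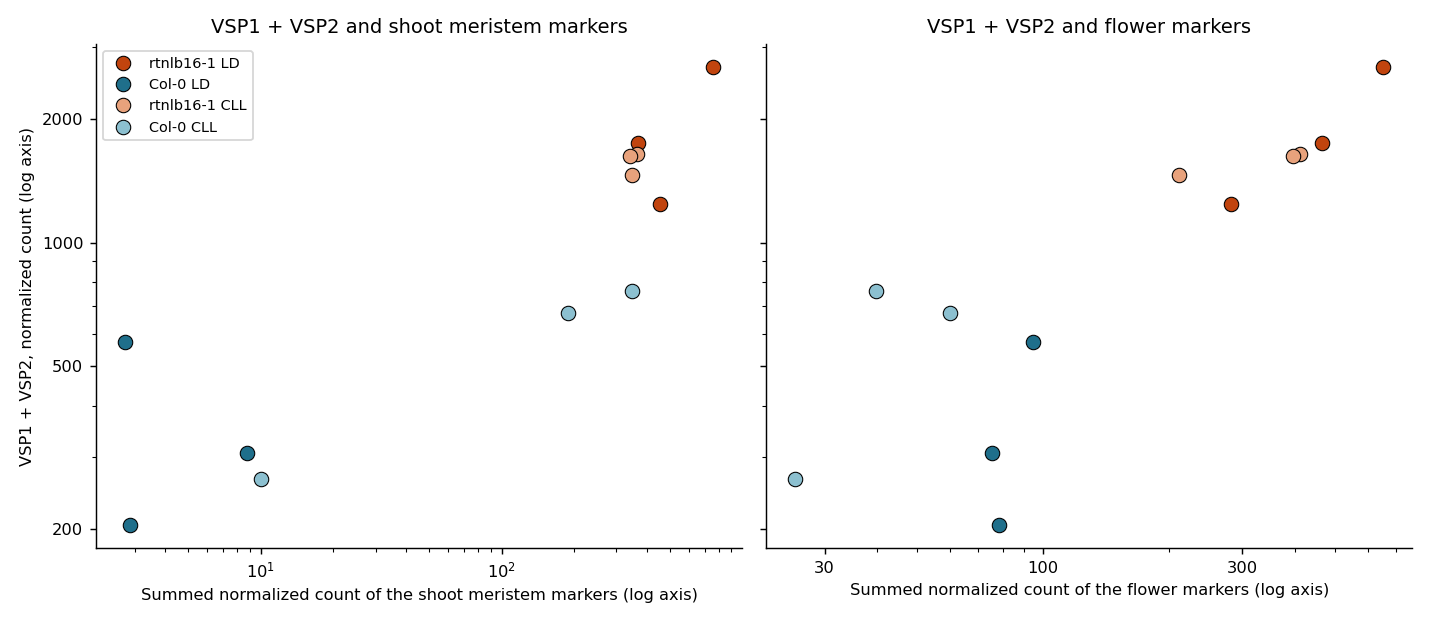
Sum of *VSP1* and *VSP2* normalized counts in each library (log axis) against the summed counts of shoot meristem markers (left) and flower markers (right, log axes), coloured by group. The 6 *rtnlb16-1* libraries lie at 1241 to 2686 on the vertical axis, and Col-0 CLL library 66 sits with the Col-0 LD libraries at a low meristem sum.

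The set was also compared between light regimes within each genotype. In *rtnlb16-1*, 3 genes were lower under LD than under CLL, against 3.28% of all genes, and none was higher, against 1.93%. In Col-0, 3 were lower under LD, against 3.83% of all genes, and 1 was higher, against 2.1%. Over all genes, *rtnlb16-1* had 585 higher and 997 lower calls under LD, and 364 higher and 1516 lower with upper-quartile scaling, which changed the median log2 fold change to -0.28, against -0.09 with size factors. Col-0 had 639 higher against 1165 lower calls, and 378 against 1656 with that scaling, which gave a median of -0.25, against -0.05. The members' calls in these comparisons were the same in number and direction under that scaling.

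*TAT3* and *AOC3* were lower under LD in both genotypes. *TAT3* had a log2 fold change of -6.06 in *rtnlb16-1* (standard error 0.55, adjusted p = 1.04e-05 from limma) and of -3.85 in Col-0 (standard error 0.55, adjusted p = 0.000441 from limma), where the 119 to 399 counts under LD compare with 2389 to 5076 under CLL. The *rtnlb16-1* value rests on 4 reads under LD and ranged from -7.05 to -4.70 over the alternatives. *AOC3* had 16.7 to 20.2 under LD and 69.5 to 78.2 under CLL in *rtnlb16-1*, and 21.1 to 30.2 under LD and 132 to 176 under CLL in Col-0, with log2 fold changes of -1.97 and -2.68. Both genotypes thus had few *AOC3* reads under LD, and no LD library reached the lowest CLL library. *LOX2* was called lower under LD in *rtnlb16-1* (log2 fold change -2.10, adjusted p = 0.000272 from limma), and in Col-0 it was not called, with an interval of -1.01 to 0.21. *AOS* was higher under LD in Col-0 (log2 fold change 1.37, adjusted p = 0.00352 from limma), while its interval in *rtnlb16-1* ran from -0.77 to 0.37. *VSP1* was lower under LD in Col-0 (log2 fold change -2.69, adjusted p = 0.0077 from limma). The *AOS* call was lost with libraries 68 and 69 merged and without library 48, 49, 65, 67 or 69, and the *VSP1* call with a pseudocount of 5, with the merged libraries and without library 47, 48, 65, 67, 68, 69 or 70.

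**Figure D4:**
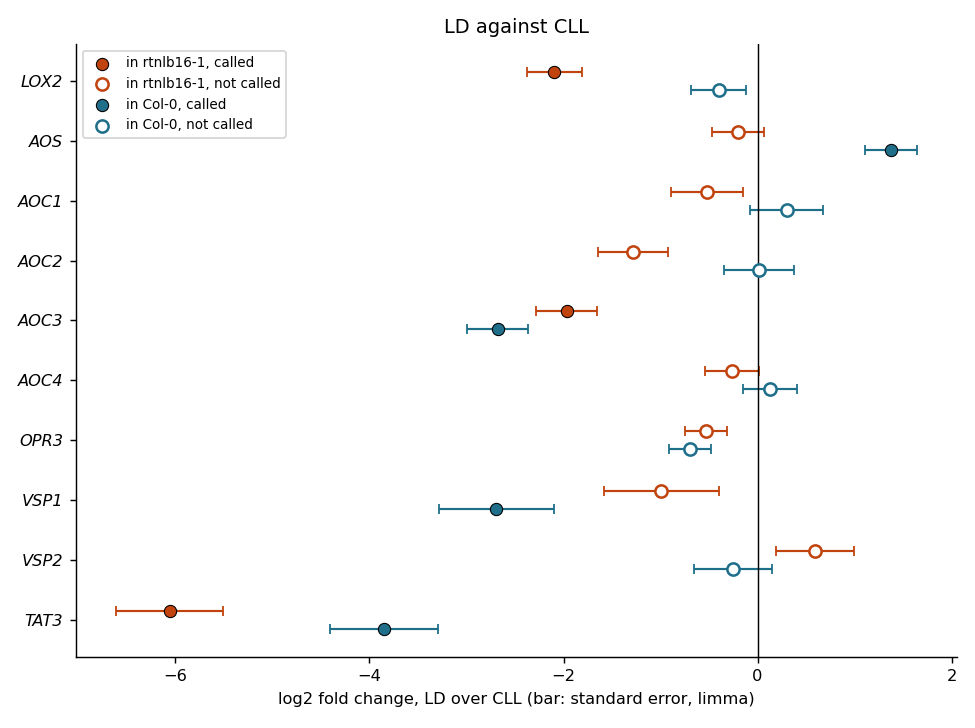
Log2 fold change of LD over CLL for each gene, with its standard error from limma, in *rtnlb16-1* and in Col-0; filled points were called. *TAT3* and *AOC3* have filled points below 0 in both genotypes, *LOX2* in *rtnlb16-1* alone, and *AOS* is the 1 filled point above 0, in Col-0.

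Whether the genotype difference itself changed with light was tested by the interaction. limma called none of the 10 genes, against 0.533% of all genes with a negative and 0.395% with a positive interaction, and 4 of the 10 had an unadjusted p under 0.05, against 15.8% of all genes. The largest of these in the negative direction was *TAT3* at -2.21 (adjusted p = 0.164 from limma), with *LOX2* at -1.70 (adjusted p = 0.0350), *AOS* at -1.58 (adjusted p = 0.0371) and *AOC2* at -1.29 (adjusted p = 0.219). The *TAT3* value rests on 4 reads in *rtnlb16-1* under LD and ranged from -3.29 to -0.87 over the alternatives. edgeR called 3 negative interactions, *LOX2*, *AOS* and *TAT3*, against 1.99% of all genes, and DESeq2 called *LOX2* and *AOS*, against 1.79%. Without library 66 limma called *LOX2*. The genotype difference of *VSP1* was 1.70 larger on the log2 scale under LD, with an interval of -0.10 to 3.50.

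Shares within a library are given as descriptions, with no test. Per kilobase of exon, *AOC2* made up 29.1% to 39.6% of the 4 in *rtnlb16-1* under LD, against 59.6% to 65.5% in Col-0, and *AOC4* made up 40.9% to 58.6% in *rtnlb16-1*, against 16.2% to 21.1% in Col-0. *AOC4* was thus the leading cyclase transcript in *rtnlb16-1* under LD, by little in library 50 (40.9% against 39.6%), and *AOC2* in Col-0. The *AOC4* count itself was not higher in *rtnlb16-1*, as given above. Under CLL *AOC2* made up 48.3% to 52.6% in *rtnlb16-1*, against 58.3% to 69.2% in Col-0. The ratio of *VSP2* to *LOX2* per kilobase, which does not depend on library scaling, was 1.34 to 1.87 in *rtnlb16-1* under LD, against 0.0272 to 0.0919 in Col-0, and 0.218 to 0.349 in *rtnlb16-1* under CLL, against 0.0145 to 0.0965 in Col-0. The ratio of *VSP2* to *VSP1* was 3.59 to 7.13 in *rtnlb16-1* under LD, against 6.13 to 29.8 in Col-0, and 1.24 to 2.45 in *rtnlb16-1* under CLL, against 2.01 to 2.14 in Col-0. The 29.8 is from library 48, where *VSP1* had 8.80 normalized counts.

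Of 54 further jasmonate genes listed by role, 52 had reads, and they are given by their step in the pathway. *DGL* and *MYC2* were listed at 0 in every library. The annotated span of *MYC2* lies to 98.5% under a gene on the opposite strand. Whether counting used strand is not given, so nothing can be said of the level of *MYC2*. The same limit holds for *MYB24*, which lies to 100% under such a gene and had at most 2.02 normalized counts. It holds in part for *MYB21*, which lies to 21.3% under 1 such gene and had at most 0.924. Among 17 other synthesis genes with reads, 5 were called higher and 1 lower in *rtnlb16-1* under LD, against 6.0% and 5.41% of all genes, with a median log2 fold change of -0.13. Under CLL 2 were called higher and none lower, against 0.836% and 0.711% of all genes. *OPR1* had 13142 to 17046 normalized counts in *rtnlb16-1*, against 1004 to 1424 in Col-0 (log2 fold change 3.55, adjusted p = 1.79e-07 from limma), and *OPR2* had 3234 to 4414 in *rtnlb16-1*, against 140 to 215 in Col-0 (log2 fold change 4.43, adjusted p = 2.31e-07 from limma). These encode cytosolic relatives of OPR3, and their annotated spans share 216 bases on the same strand. Both were also higher under CLL, *OPR1* by 2.62 and *OPR2* by 2.83 on the log2 scale, and were called there in all 25 alternatives.

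The other calls among synthesis genes under LD belong to the peroxisomal part of the route. The list's other peroxisomal genes, *ACX5*, *AIM1* and *KAT2*, were not called. Their means under LD were 542, 3179 and 5752 in *rtnlb16-1*, against 619, 3084 and 4827 in Col-0. *ACX1*, an acyl-CoA oxidase of beta-oxidation, rose by 1.51 on the log2 scale and *CTS*, the transporter that brings fatty acids and the jasmonate precursor into the peroxisome, by 1.27. *MFP2*, a multifunctional enzyme of the same cycle, rose by 1.02 and *OPCL1*, the ligase that activates the precursor, fell by 1.08, and these last genes were named after their values were seen. *MFP2* lost its call without library 49, 50 or 52, and *OPCL1* without library 48 or 50, with upper-quartile scaling and with only the groups compared. Of 12 genes of conjugation, turnover and transport, 1 was called, the amidohydrolase gene *ILL6*, which fell by 1.44 and lost its call without library 48, 51 or 52. Of 13 genes of perception and transcription, the co-repressor gene *TPL* rose by 1.30 and *MYC4* fell by 1.23. *MYC4* lost its call in 12 of 25 alternatives, among them those without library 47, 49, 50, 52, 67, 68, 69 or 70. Of 10 other output genes 1 was called higher and 1 lower under LD, and 1 lower under CLL. *CORI3*, a cystine lyase gene induced by coronatine, fell by 1.15 under LD and by 1.45 under CLL. It lost its call under LD without library 48, 49 or 51 and with upper-quartile scaling, and under CLL without library 66, 68, 69 or 70 and with libraries 68 and 69 merged. *THI2.1*, a thionin gene, had 12 reads in *rtnlb16-1* and none in Col-0 under LD, at least 2.90-fold higher against a floor of 3 reads over the group, and lost its call in 10 of 25 alternatives, among them those without library 47, 48, 49, 50, 51 or 69. The calls in these 3 lists under LD, 1 of 12, 2 of 13 and 2 of 10, are not read as more than the background of 6.0% higher and 5.41% lower. Under CLL no gene of conjugation, turnover and transport or of perception and transcription was called.

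Between light regimes, calls over all genes were more often lower than higher under LD, as given above (in *rtnlb16-1* 3.28% lower and 1.93% higher, in Col-0 3.83% lower and 2.1% higher). The further genes called are named after their values were seen, and nothing particular to them is read from the direction. Of the 17 synthesis genes, *OPR1* and *OPR2* were called higher under LD in *rtnlb16-1*, by 1.02 and 1.60 on the log2 scale, and none was called in Col-0. The *OPR1* call was lost in 16 of 25 alternatives, among them edgeR, DESeq2, both other scalings and those without library 47, 48, 50, 51, 52, 66, 67, 68 or 69. The *OPR2* call was lost without library 68 or 69 and with both merged. Of the 12 genes of conjugation, turnover and transport, the amidohydrolase gene *IAR3* was lower under LD in both genotypes (log2 fold change -1.17 in *rtnlb16-1*, lost without library 52 or 70, and -1.29 in Col-0), and the jasmonate hydroxylase gene *JOX2* was lower in *rtnlb16-1* (-2.38, lost without library 70). Of the 13 genes of perception and transcription, *MYC4* was lower in *rtnlb16-1* (-1.35), a call lost in 9 of 25 alternatives, among them those without library 50, 52, 66, 67, 68, 69 or 70. *ERF1* was lower in Col-0 (-3.06), a call lost without library 48, 65, 66, 67 or 69.

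Of the 10 other output genes, 3 were called lower under LD in each genotype, *JR1*, *NATA1* and *TPS04* in *rtnlb16-1* and *JR1*, *TPS04* and *THI2.1* in Col-0. Without library 68 all 3 calls in *rtnlb16-1* were lost. *JR1* lost its call there in 8 of 25 alternatives, also without library 50, 52, 67, 69 or 70, and *NATA1* in 7, also without library 65, 67, 69 or 70. In Col-0 the 3 calls were kept in all 25 alternatives. *TPS04*, a geranyllinalool synthase gene, had 0 to 1.29 normalized counts under LD and 19.3 to 43.8 under CLL in *rtnlb16-1*, and 0 to 5.49 under LD and 47.1 to 131 under CLL in Col-0. A call in 1 genotype alone is no test of a difference between the genotypes.

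**Figure D5:**
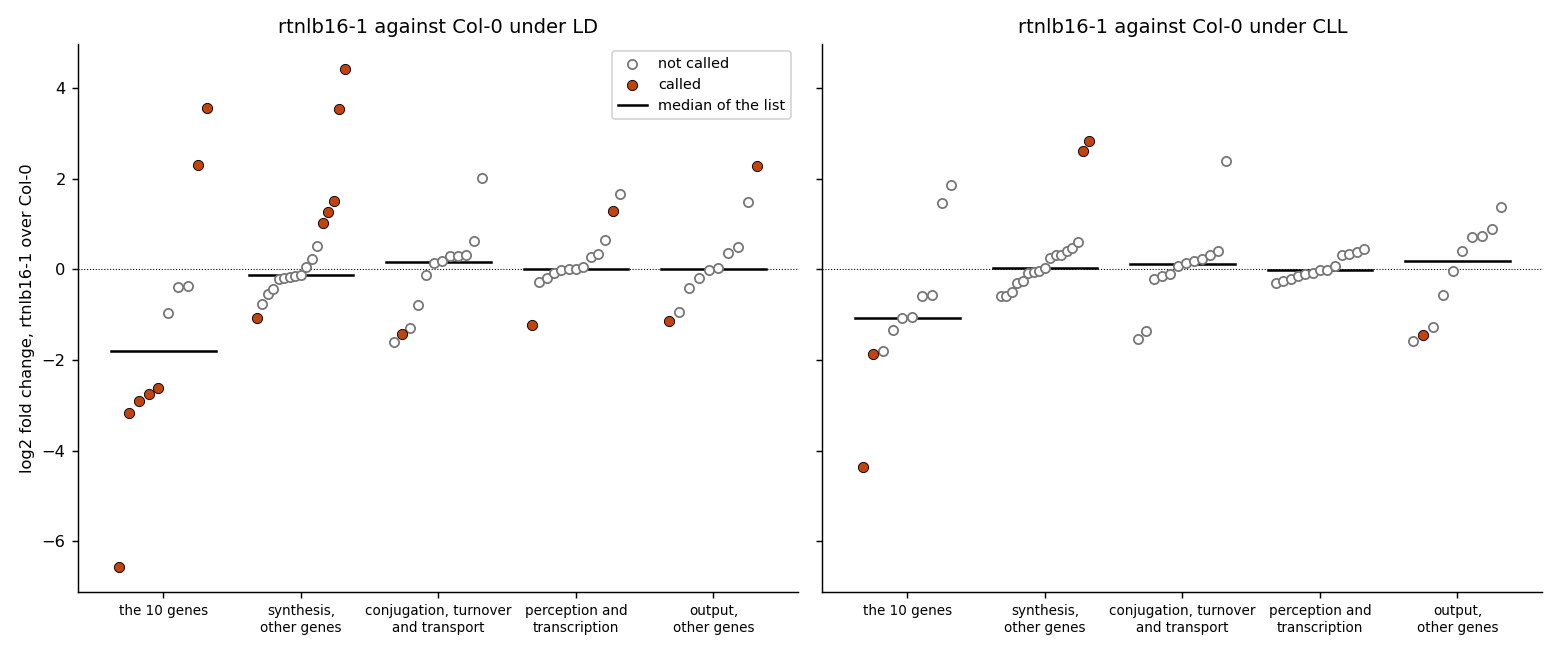
Log2 fold change of *rtnlb16-1* over Col-0 for the 10 genes and for the further jasmonate genes of each list, under LD (left) and CLL (right); filled points were called and lines are medians. The medians of the 4 further lists under LD lie between -0.13 and 0.17, against -1.79 for the 10 genes, and the highest points of the synthesis list are *OPR2* and *OPR1*.

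The 16653 genes other than the 10 with a mean normalized count of at least 50 were ranked. Ranking was by Pearson correlation over the 12 libraries with the mean standardized level of the 10. That mean includes *VSP1* and *VSP2*, which differed between the genotypes in the opposite direction to the other members. The 5 highest are named. They were AT3G59880 (r = 0.985), AT1G74440 (r = 0.984), AT1G23840 (r = 0.978), *SDR3* (AT2G47130, r = 0.978) and AT3G47480 (r = 0.972). The libraries share their group, so these values are descriptions. *SDR3*, annotated as a short-chain dehydrogenase/reductase, had 26.4 to 53.6 normalized counts in *rtnlb16-1* under LD, against 150 to 498 in Col-0, and 221 to 290 in *rtnlb16-1* under CLL, against 846 to 1377 in Col-0.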

How the data were processed

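The authors aligned the reads of 12 libraries with STAR to TAIR10, counted unambiguous reads per gene with HTSeq and divided each library by its DESeq2 size factor; whether counting used strand is not given in the sources used here. The deposited signal is thus a normalized count, and dividing by 1 factor in each library gave back whole reads for 100% of values (relative tolerance 1e-06). The 30388 genes with reads were fitted with limma 3.58.1 on log2(normalized count + 1) with a trend and 4 group means. On that scale a fold change understates the change of low genes. P-values were adjusted over all genes tested (Benjamini-Hochberg). edgeR 4.0.16 and DESeq2 1.42.0 on recovered reads, other scalings, filters, pseudocounts, thresholds and each library left out were alternatives. Intervals from limma are 95%. The fits were tested on simulated data. Gene positions and sequences are from RefSeq TAIR10.1, which holds 37051 of the 37336 IDs, and coding sequences were aligned with MAFFT. Besides the 10 genes, up to 4 called genes per further jasmonate list and genotype comparison, by fold change, were named, with the 5 most alike. Of the list entries, 2 were dropped because the ID carries another symbol. The members and lists were chosen with earlier results of these data known. Each comparison shares its groups with another.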

Additional observations from a re-analysis of the deposited data

How the results depend on the processing

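Across 1240 alternative values, 1158 kept direction and side of the threshold, 43 gained a call, 25 lost one and 14 changed sign. Under LD, 7 of the 10 genes were called and leaving out 1 library gave 7 to 8. Under CLL, 2 were called, against 1 with a pseudocount of 5, upper-quartile scaling or libraries 68 and 69 merged, 4 with the filter on low values, with only the groups compared or at an adjusted p under 0.05, 7 with edgeR, 6 with DESeq2 and 8 at an unadjusted p under 0.01. Leaving out 1 library gave 1 to 3, with 1 without library 47, 52, 66, 67, 68, 69 or 70. LD against CLL gave 3 in *rtnlb16-1*, and 3 to 3 with 1 library left out. In Col-0 it gave 4, with 2 when libraries 68 and 69 were merged and 2 to 4 with 1 library left out (2 without library 48, 65, 67 or 69). The interaction gave 0, against 3 with edgeR, 2 with DESeq2, 2 at an unadjusted p under 0.01 and 2 at an adjusted p under 0.05, and 0 to 1 with 1 library left out (1 without library 66).

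Each sign change was of a gene in a comparison where that gene was not called. *AOS* in LD against CLL in *rtnlb16-1* ranged from -0.48 to 0.0523 with 1 library left out. In LD against CLL in Col-0 the same range was -0.0236 to 0.76 for *AOC1*, -0.34 to 0.42 for *AOC2*, -0.24 to 0.39 for *AOC4* and -0.73 to 0.12 for *VSP2*. *AOC2* was there at -0.0283 with TMM scaling, -0.23 with upper-quartile scaling, -0.054 with edgeR and -0.0219 with DESeq2, and *AOC4* at -0.12 with upper-quartile scaling. The causes were not tested. Upper-quartile scaling moved the median of all genes under CLL from 0.03 to 0.14. No paired analysis was possible because the groups share no replicate numbers. Counts of *TAT3* in *rtnlb16-1* under LD rest on 4 reads.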
